A study of Mus musculus with 4 samples.

Results

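RNA of 8 genes that are widely used to mark fibroblasts and fibro-adipogenic progenitors of skeletal muscle was examined in sorted muscle stem cells (MuSCs): Pdgfra, Dcn, Lum, Gsn, Dpt, Mfap5, Ly6a and Fbn1. The genes were taken by name, and all 8 were among the 19353 genes counted. The cells came from plantaris muscle of Pax7CreERT2+::RosaYFP mice. In these, tamoxifen lets a Cre recombinase driven by Pax7 switch on yellow fluorescent protein (YFP) in MuSCs and in whatever those cells become. Both groups carried these alleles, and they differed in surgery: tenotomy of the gastrocnemius and soleus muscles, which overloads the plantaris, or a sham incision. Cells were collected 4 days after surgery and sorted by YFP into tubes of 100 cells, and each group had 2 libraries, called sham 1, sham 2, overloaded 1 and overloaded 2 here. The age of the mice is not given in the sources used here, nor is it said if the 2 tubes of each group were filled from separate animals, so that p-values measure only the spread between these libraries, which may be technical.

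Fibroblasts and fibro-adipogenic progenitors lie between the myofibers, outside the basal lamina, and make much of the collagen, proteoglycan and microfibril matrix of muscle. They are a different lineage from MuSCs and are commonly recognised by the receptor PDGFRα and by Sca-1, the surface antigen encoded by Ly6a. None of the 8 genes is made by fibroblasts alone, and MuSCs also make some of the matrix that surrounds them.

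Libraries were made by CEL-Seq2, in which transcripts are read from their poly(A) tail and every captured molecule carries a random tag, its unique molecular identifier (UMI). A count is therefore a number of distinct molecules, and levels of different genes can be compared without division by length. Totals were 269683 and 260488 UMIs in sham and 387955 and 483528 UMIs in overloaded libraries, or 2697 and 2605 against 3880 and 4835 per sorted cell. Levels are given as UMIs and as CPM (UMIs of a gene relative to a fixed library total) after TMM scaling, which sets the libraries to a common size on the premise that most genes do not change. The floor of 3 counts corresponded to 13.1 CPM in sham 1, 13.6 CPM in sham 2, 7.80 CPM in overloaded 1 and 6.08 CPM in overloaded 2.

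The marker RNA was present in all 4 libraries, took a smaller share of the RNA in MuSCs of overloaded muscle, and changed its make-up. Gsn and Dpt fell, to 594 ± 53.3 from 1271 ± 74.0 CPM and to 212 ± 1.84 from 570 ± 0.399 CPM (SD, n = 2 libraries per group). Dcn was lower by less, and Ly6a went from a single UMI in the sham libraries to 63 UMIs in the overloaded libraries. Pdgfra, the gene of a receptor by which fibro-adipogenic progenitors are commonly recognised, gave 2 UMIs in the 4 libraries together. By the quasi-likelihood test of edgeR at a Benjamini-Hochberg adjusted p of 0.1, 3 members were lower (Gsn, Dpt and Dcn) and 1 was higher (Ly6a), 1 did not pass (Fbn1), and 3 had too few counts to be tested (Pdgfra, Lum and Mfap5). Among all 7228 genes tested, 26.3% were called lower and 25.8% higher, so that calls in both directions were common. The median log2 fold change was -0.38 over the 5 members tested and 0.05 over all genes tested. In UMIs per tube, 3 members were called higher and 1 lower, and 93.1% of the calls over all genes were higher. The call of Gsn was lost there, and Dcn turned to a log2 fold change of 0.58. With offsets fitted so that fold changes no longer follow abundance, 1 member was higher and 1 was lower. Of all 7228 genes tested, 1600 were higher and 1549 lower in that setting. In RNA pooled from sorted cells, fewer cells of a type and less RNA per cell cannot be told apart.

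The 8 genes together gave 572 UMIs in sham 1, 520 in sham 2, 528 in overloaded 1 and 666 in overloaded 2. These were 0.212% (exact Clopper-Pearson 95% interval 0.195 to 0.230%), 0.200% (0.183 to 0.218%), 0.136% (0.12 to 0.148%) and 0.138% (0.127 to 0.149%) of all UMIs, intervals that cover counting error only. Both overloaded libraries lay below both sham libraries in this share, and their intervals did not reach those of sham. The summed level was 2423 ± 94.9 CPM in sham and 1361 ± 17.1 CPM in overloaded MuSCs, a log2 ratio of -0.83. Gsn, Dpt and Dcn, which made up most of the sum, were in the most abundant of the 10 abundance classes of tested genes, and all genes of that class had a median log2 fold change of -0.73. Per tube of 100 cells, however, the sums were 546 ± 36.8 and 597 ± 97.6 UMIs (log2 ratio 0.13), and the groups overlapped. The lower level was thus one relative to the other RNA of the same libraries. The mean number of marker molecules recovered per tube differed by less than the SD of the overloaded libraries. UMIs per tube also depend on capture and sequencing depth, which were not separated from RNA content here.

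**Figure D1:**
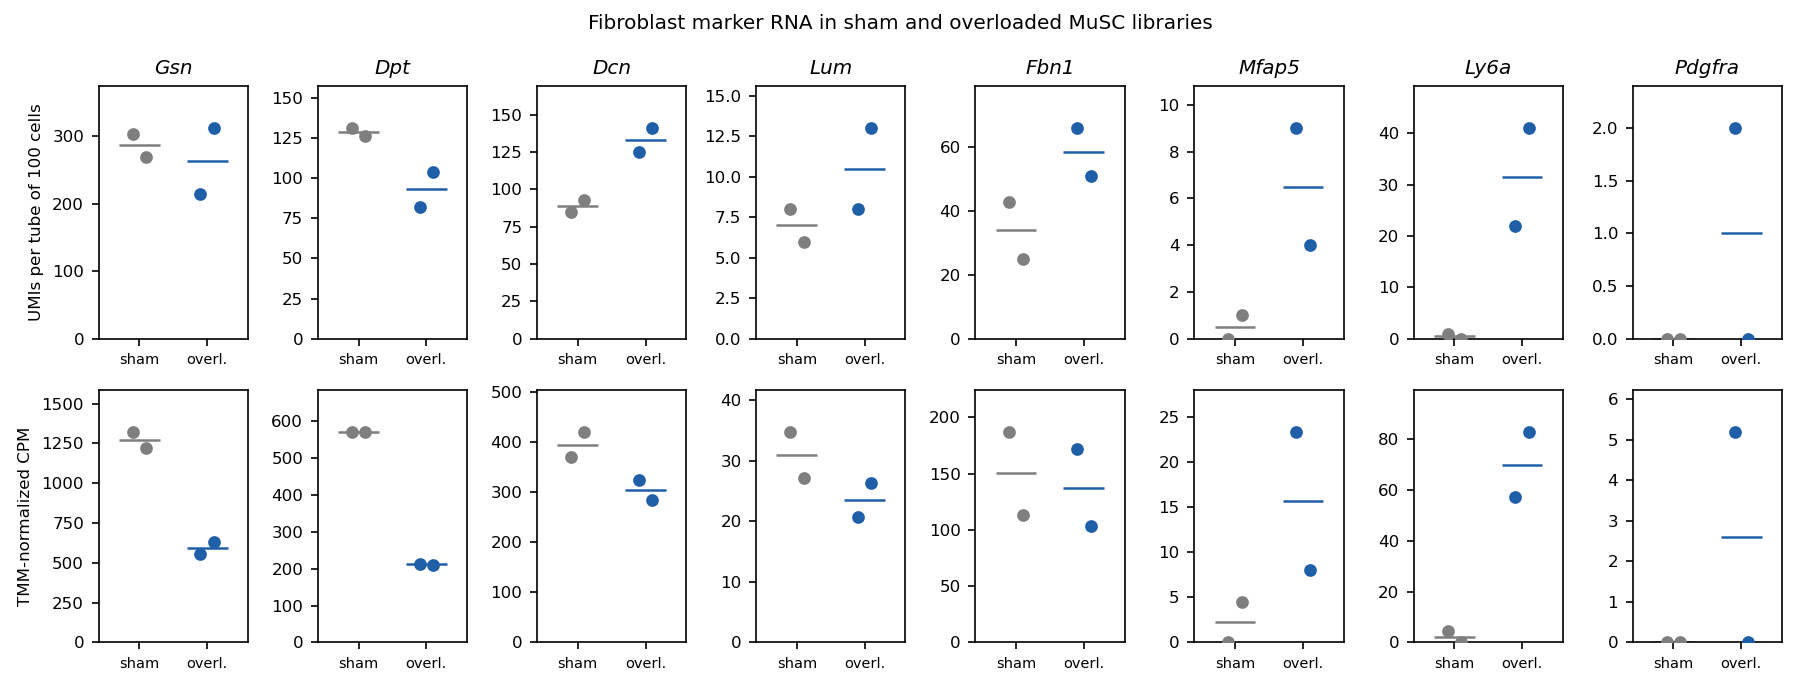
UMIs per tube of 100 cells (upper row) and TMM-normalized CPM (lower row) of each of the 8 genes; each point is a library, grey for sham and blue for overloaded, each line is the mean of a group, and each panel has its own scale from 0. Dpt was lower and Ly6a higher in overloaded MuSCs on both scales, whereas Dcn was higher in UMIs per tube and lower in CPM.

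Gsn encodes gelsolin, which severs and caps actin filaments and also exists in a secreted form, and lies at chr2:35256380-35307892 on the plus strand (GRCm38). It gave 304 UMIs in sham 1, 269 in sham 2, 214 in overloaded 1 and 312 in overloaded 2, and its level was 1323, 1219, 556 and 632 CPM. It was the most abundant member in every library, and in CPM both overloaded libraries were below both sham libraries. The log2 fold change was -1.09 (SE 0.16, 95% interval -1.43 to -0.76; edgeR adjusted p = 3.9e-05). In UMIs per tube the groups overlapped, and the call was lost there (log2 fold change -0.12, adjusted p = 0.54) and with offsets fitted so that fold changes no longer follow abundance (-0.13, adjusted p = 0.51). The median log2 fold change of the 200 tested genes nearest to Gsn in abundance was -0.90.

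Dpt encodes dermatopontin, a small matrix protein that binds decorin and helps to assemble collagen fibrils, and lies at chr1:164796644-164824266 on the plus strand. Its counts were 131 and 126 UMIs in sham and 82 and 104 UMIs in overloaded libraries, or 570 and 571 against 213 and 211 CPM. The groups were apart on both scales. The log2 fold change was -1.43 (SE 0.17, 95% interval -1.78 to -1.08; edgeR adjusted p = 4.6e-06), and it stayed past the threshold in the 16 other settings tried, at -0.47 (adjusted p = 0.066) in UMIs per tube and -0.84 (adjusted p = 0.00022) with offsets against abundance. The 200 genes nearest to Dpt in abundance had a median of -0.64.

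Because Gsn and Dpt were the members with the largest falls, the stretch around their annotated starts is shown, from 250 bases before to 50 bases after the start (RefSeq, GRCm38.p6, plus strand, 5′ to 3′). The Dpt window is chr1:164796413-164796712 and the Gsn window, the first of 3 annotated for this gene, is chr2:35256109-35256408. Capitals mark the E-box CAGCTG, a sequence that MyoD-family proteins can bind, and the letters TATAAA.
Dpt: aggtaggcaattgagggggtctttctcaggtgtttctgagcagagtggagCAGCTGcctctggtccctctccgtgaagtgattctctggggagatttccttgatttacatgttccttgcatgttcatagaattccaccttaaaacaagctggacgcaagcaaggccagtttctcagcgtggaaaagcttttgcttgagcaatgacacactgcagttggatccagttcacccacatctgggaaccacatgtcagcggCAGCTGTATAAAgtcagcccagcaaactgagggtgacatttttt
Gsn: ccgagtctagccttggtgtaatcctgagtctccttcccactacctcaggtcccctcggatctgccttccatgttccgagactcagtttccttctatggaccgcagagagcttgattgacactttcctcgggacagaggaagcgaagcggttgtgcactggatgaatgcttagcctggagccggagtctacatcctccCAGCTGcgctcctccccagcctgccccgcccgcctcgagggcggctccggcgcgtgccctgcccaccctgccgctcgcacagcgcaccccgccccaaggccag
The Dpt window held CAGCTG at positions -200 and 7 and TATAAA at position 13, counted as the first base of the match relative to the start (position 1), and the Gsn window held CAGCTG at position -53. A second Gsn window held CAGCTG at -216, the third held none, and of the other members with an entry Fbn1 held it at 39 and Pdgfra did not hold it. On both strands, CAGCTG occurred in 16.3% of all 32851 promoter windows of this length and TATAAA in 13.6%. The other motifs searched were CCAAT (37.4% of all windows), GGGCGG (35.7%), TGANTCA (7.81%), GGAATG (14.7%) and TGGGAA (25.6%), and of the 6 windows of the members these were held by 2, 4, 0, 0 and 4. These matches are a description of the letters only.

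Dcn and Lum encode decorin and lumican, small leucine-rich proteoglycans that bind collagen fibrils and limit their width, and are neighbours on chromosome 10 with 46984 bases between them (Dcn at chr10:97479609-97518143 and Lum at chr10:97565128-97572703, both on the plus strand). Dcn gave 85 and 93 UMIs in sham and 125 and 141 UMIs in overloaded libraries, but 370 and 421 against 325 and 286 CPM. The groups were therefore apart in opposite directions on the 2 scales. In CPM, Dcn was 396 ± 36.3 in sham and 305 ± 27.9 in overloaded MuSCs, with a log2 fold change of -0.38 (SE 0.17, 95% interval -0.74 to -0.01; edgeR adjusted p = 0.085). This call was not firm: it held in only 5 of 16 other settings and was lost, among others, under DESeq2 (adjusted p = 0.38) and without sham 1 (0.14), sham 2 (0.38) or overloaded 2 (0.33). The direction turned in UMIs per tube (0.58, adjusted p = 0.024) and with offsets against abundance (0.20, adjusted p = 0.35). The 200 genes nearest to Dcn in abundance had a median of -0.65. Lum gave 8 and 6 UMIs in sham and 8 and 13 in overloaded libraries, 31.0 ± 5.40 against 23.6 ± 3.91 CPM, and was not tested. Its groups were narrowly apart in CPM and shared a value of 8 UMIs per tube.

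Dpt and Dcn changed places within the libraries. Dpt exceeded Dcn in both sham libraries (131 against 85 and 126 against 93 UMIs), and Dcn exceeded Dpt in both overloaded libraries (125 against 82 and 141 against 104 UMIs), an order that no scaling of a library can alter. Dpt made up 22.9 and 24.2% of the UMIs of the 8 genes in sham and 15.5 and 15.6% in overloaded libraries, while Dcn made up 14.9 and 17.9% and then 23.7 and 21.2%. Gsn took 53.1 and 51.7% in sham and 40.5 and 46.8% in overloaded libraries. The share of Fbn1 was 7.52 and 4.81% and then 12.5 and 7.66%, and that of Ly6a was 0.175 and 0% and then 4.17 and 6.16%.

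**Figure D2:**
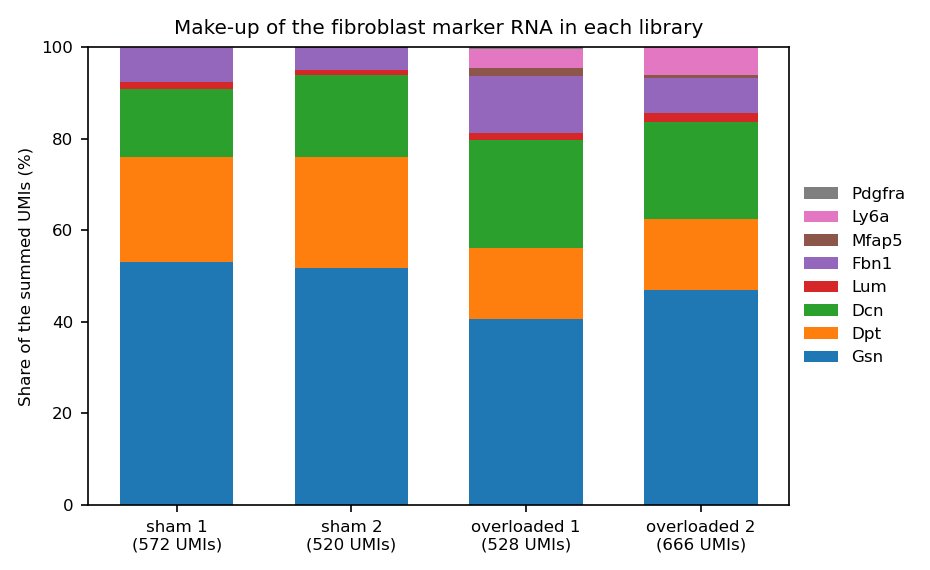
Stacked bars give the share of each gene, in percent, of the summed UMIs of the 8 genes in each of the 4 libraries, with the summed UMIs under each bar. Gsn and Dpt together were the larger part of every bar, and Dcn, Fbn1 and Ly6a took more of each overloaded bar than of either sham bar.

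Fbn1 and Mfap5 encode fibrillin-1 and a glycoprotein bound to it (MAGP-2), both parts of the microfibrils on which elastic fibers form. Fbn1 (chr2:125300594-125507993, minus strand) gave 43, 25, 66 and 51 UMIs in sham 1, sham 2, overloaded 1 and overloaded 2, or 187, 113, 172 and 103 CPM. The groups overlapped in CPM and were apart, higher in overloaded, in UMIs per tube. The log2 fold change was -0.16 (SE 0.29, 95% interval -0.77 to 0.44; edgeR adjusted p = 0.67), which leaves room for changes in either direction, and in UMIs per tube it was 0.78 (adjusted p = 0.056). Mfap5 (chr6:122505845-122529290, plus strand) gave 0 and 1 UMIs in sham and 9 and 4 UMIs in overloaded libraries. It was not tested, and the ratio of its depth-scaled counts was 6.67 with an exact binomial interval of 1.0 to 283.

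Ly6a encodes Sca-1, a small protein held to the cell surface by a lipid anchor, and lies at chr15:74994877-74998031 on the minus strand. It gave 1 and 0 UMIs in sham and 22 and 41 UMIs in overloaded libraries, or 4.35 and 0 against 57.2 and 83.0 CPM. Both sham libraries were below the floor of 3 counts and both overloaded libraries were well above it. The ratio of overloaded to sham was 32.3, with a wide exact binomial interval of 5.59 to 1296 because it rests on 1 sham UMI (edgeR adjusted p = 0.00011). Ly6a passed the filter on low counts only through the overloaded libraries, so that it had to differ to be tested at all. Its p is given as a description for that reason, and the median log2 fold change of the 200 tested genes closest to Ly6a in mean log2 CPM over the 4 libraries, a mean that its low sham values pull down, was 2.98. Antibodies to Sca-1, to CD31 of endothelial cells and to CD45 of leukocytes were used to stain mononuclear cells in the study, and whether the YFP-sorted cells were also gated on them is not stated.

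Pdgfra encodes the receptor PDGFRα, which drives growth of mesenchymal cells, and lies at chr5:75152292-75198215 on the plus strand. It gave 0 UMIs in sham 1, in sham 2 and in overloaded 2, and 2 UMIs in overloaded 1. A count of 0 allows a share of up to 0.00111% of UMIs in sham 1 and 0.00115% in sham 2, and no difference was detectable at this depth. Pdgfrb, which encodes the other PDGF receptor, gave 4, 2, 4 and 15 UMIs in sham 1, sham 2, overloaded 1 and overloaded 2. Other genes used as fibro-adipogenic or fibroblast markers ranged widely. Pi16 gave 1, 0, 0 and 0 UMIs, Procr gave 0, 0, 2 and 0, Fap gave 0, 1, 3 and 2, and Smoc2 gave 0, 1, 6 and 4 UMIs; these genes and Pdgfrb are named after their values were seen. Serping1 gave 185, 175, 151 and 241 UMIs and Tnfaip6 gave 165, 133, 103 and 114 UMIs. Of the 8 genes, Gsn, Dcn and Dpt had more UMIs than 99.3%, 92.5% and 92.4% of the tested genes, while Pdgfra was at or under the floor in each library. The cells from which the RNA of the 8 genes came were not tested.

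**Figure D3:**
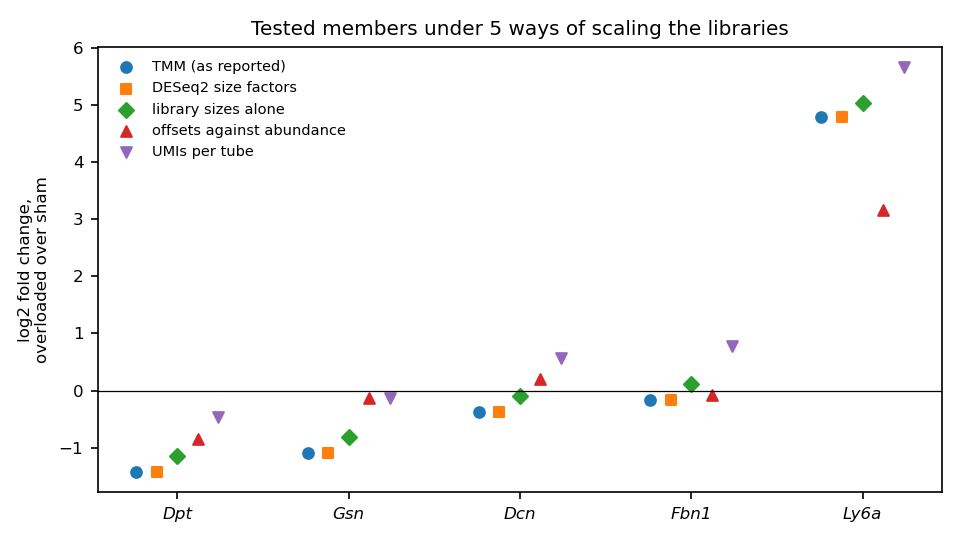
The log2 fold change (overloaded over sham) of the 5 tested members under 5 ways of scaling, with a symbol for each way. Dpt lay below 0 and Ly6a above 0 under all 5, Gsn came close to 0 with offsets against abundance and in UMIs per tube, and Dcn and Fbn1 had values on both sides of 0.

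Scaling moved all genes and not only these. The median log2 fold change of all genes tested was 0.05 with TMM, 0.33 with library sizes alone and 1.01 in UMIs per tube, and the share of calls that were higher was 49.6%, 66.6% and 93.1%. Against the median of 1.01, the values per tube of Dpt (-0.47), Gsn (-0.12), Dcn (0.58) and Fbn1 (0.78) all lay below that of the typical gene, and the value of Ly6a (5.66) lay above it. This median is not one of genes of like abundance, and with TMM the class medians ran from 1.64 (least abundant) to -0.73 (most abundant). Against the 200 genes nearest in abundance, with TMM, Dpt (-1.43 against -0.64) and Gsn (-1.09 against -0.90) were lower. Dcn (-0.38 against -0.65) was higher, and Fbn1 (-0.16 against -0.13) was close.

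A wider list of 30 genes used as markers of fibro-adipogenic cells and fibroblasts had 27 genes in the data, of which 14 were tested. Among these 7 were lower, 4 were higher and 3 did not pass, with a median log2 fold change of -0.48; in UMIs per tube 4 were lower and 6 were higher. The list summed to 4231 and 4276 CPM in sham and to 2956 and 2926 CPM in overloaded libraries, with Serping1, an inhibitor of complement C1, as its most abundant gene. The largest falls were those of Has1, a hyaluronan synthase (454 ± 69.3 to 131 ± 1.15 CPM; log2 fold change -1.79, SE 0.19, adjusted p = 1.6e-06), and of Abca8a, a lipid transporter (422 ± 49.6 to 135 ± 40.6 CPM; -1.61, SE 0.21, adjusted p = 1.3e-05). Col15a1, a basement membrane collagen, fell from 637 ± 29.1 to 217 ± 23.1 CPM (-1.55, SE 0.17), and Tnfaip6, which binds hyaluronan, fell from 660 ± 81.8 to 249 ± 26.1 CPM (-1.41, SE 0.17). These 4 genes stayed past the threshold in all 16 other settings. Fbln2 (-1.39), Serping1 (-0.85) and Lpl (-0.55) also fell in CPM, but these calls were lost in UMIs per tube, where the last 2 turned in direction (0.12 and 0.42). The call of Serping1 was also lost with offsets against abundance (adjusted p = 0.95). That of Lpl held in only 9 of 16 other settings and was lost, among others, under DESeq2 (0.25) and without sham 2 (0.16) or overloaded 1 (0.15).

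The higher genes of this list were Mgp, Fbln1, Thy1 and Serpinf1. Mgp, which encodes an inhibitor of calcification, gave 2 and 0 UMIs in sham and 163 and 163 UMIs in overloaded libraries, a ratio of 83.6 (exact binomial interval 23.0 to 693). Fbln1, a fibulin of basement membranes and elastic fibers, gave 1 and 0 against 18 and 20 UMIs (ratio 19.5, 3.29 to 790), and its call was lost with offsets against abundance (adjusted p = 0.23). Thy1, a surface protein of fibroblasts and other cells, rose from 35.5 ± 1.0 to 129 ± 4.99 CPM (log2 fold change 1.85, SE 0.33, adjusted p = 0.00029), and Serpinf1, the secreted factor PEDF, rose from 62.1 ± 4.53 to 225 ± 12.3 CPM (1.85, SE 0.25, adjusted p = 2.4e-05). Like Ly6a, the tested genes given here by a ratio because they had at most 3 sham UMIs passed the filter only through the overloaded libraries.

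**Figure D4:**
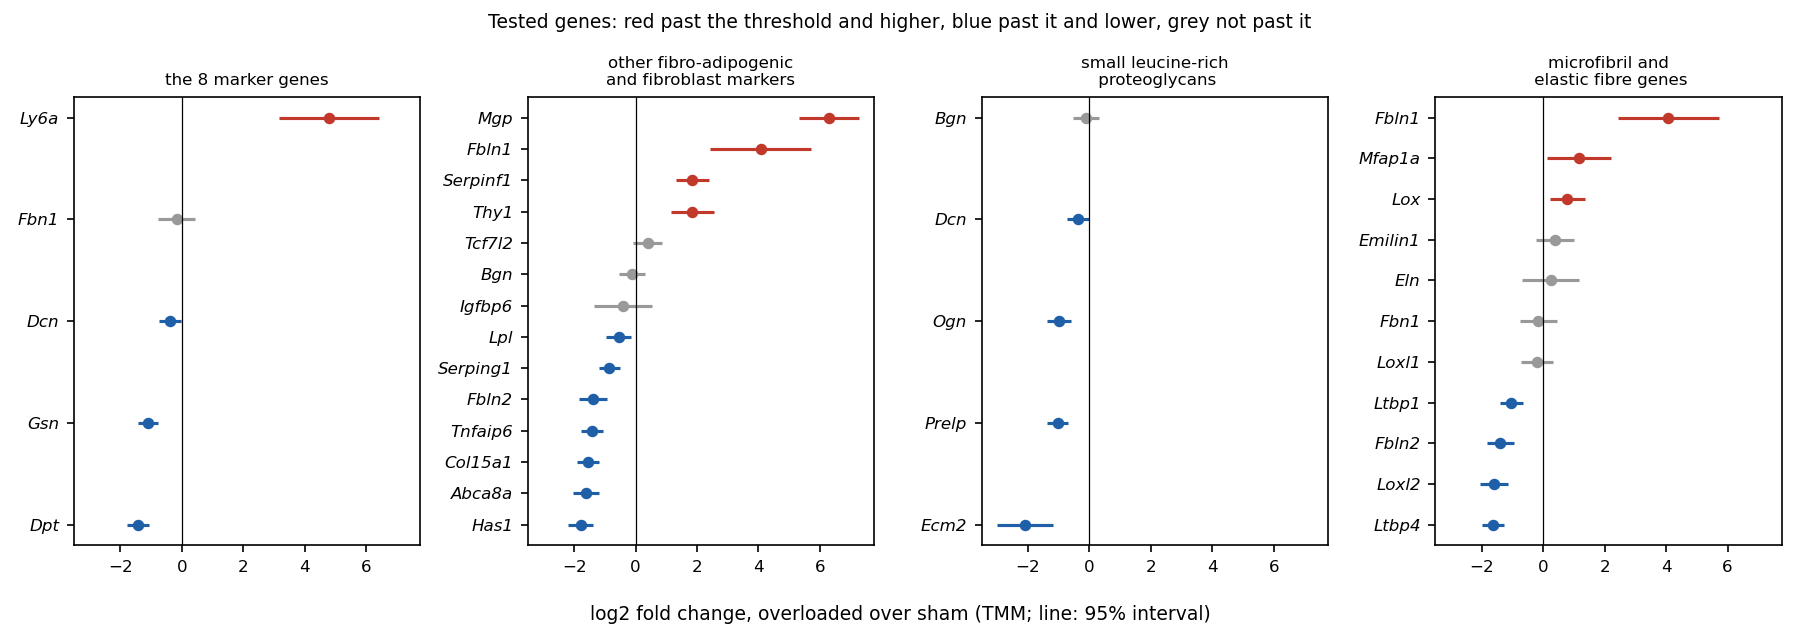
The log2 fold change (overloaded over sham, TMM scaling) of each tested gene in 4 lists, with its 95% interval; red genes passed the threshold and were higher, blue genes passed it and were lower, and grey genes did not pass. In 3 of the 4 lists the points lay on both sides of 0, and all points of the small leucine-rich proteoglycans lay below it.

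Among 14 small leucine-rich proteoglycans, 11 were in the data and 5 were tested, of which 4 were lower and Bgn did not pass (median -0.98). In UMIs per tube 1 was lower and 2 were higher, and with offsets against abundance 2 were lower and 1 was higher. Prelp, which tethers basement membranes to collagen, fell from 711 ± 64.0 to 346 ± 43.9 CPM (-1.03, SE 0.17) and Ogn, osteoglycin, fell from 327 ± 43.8 to 164 ± 8.13 CPM (-0.98, SE 0.19), both calls being lost in UMIs per tube and that of Prelp also with offsets against abundance (adjusted p = 0.18). Ecm2 fell from 64.4 ± 1.32 to 14.3 ± 5.53 CPM (-2.09, SE 0.43). Bgn, biglycan, the closest relative of Dcn, was at 334 ± 75.3 and 311 ± 67.6 CPM (-0.12, adjusted p = 0.66), and its value turned to 0.83 (adjusted p = 0.0052) in UMIs per tube. Of the 5 tested proteoglycans, Dcn and Bgn were the closest to level in CPM, and both were higher per tube.

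The microfibril and elastic fiber list held 21 genes, all in the data, of which 11 were tested, with 4 lower, 3 higher and 4 that did not pass (median -0.16); in UMIs per tube 2 were lower and 7 were higher. Ltbp4, which anchors latent TGF-β to microfibrils, fell from 672 ± 9.28 to 217 ± 9.19 CPM (-1.63, SE 0.17, adjusted p = 1.1e-06), and its relative Ltbp1 fell from 358 ± 25.8 to 174 ± 3.31 CPM (-1.04, SE 0.18). Of the lysyl oxidases, which crosslink collagen and elastin, Loxl2 fell from 314 ± 74.8 to 103 ± 8.49 CPM (-1.61, SE 0.22), whereas Lox rose from 89.0 ± 15.1 to 155 ± 30.5 CPM (0.79, SE 0.27, adjusted p = 0.025). The calls of Ltbp4 and Loxl2 held in all 16 other settings; that of Ltbp1 was lost in UMIs per tube (adjusted p = 0.81) and that of Lox under DESeq2 (0.22) and without sham 1 (0.19) or overloaded 1 (0.15). The other higher genes were Fbln1 and Mfap1a (4 and 5 against 12 and 28 UMIs; 1.17, SE 0.50), which despite its name encodes a nuclear protein of the splicing machinery, and whose call was lost under DESeq2 (adjusted p = 0.39), limma-voom (0.14), with offsets against abundance (0.46), at a threshold of 0.05 and without either sham library.

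Relatives of the other members included several that rose. In the gelsolin superfamily, all 8 genes were in the data and 4 were tested, with Svil, supervillin, higher (21.9 ± 18.2 to 152 ± 16.7 CPM; 2.77, SE 0.40, but 4.0 without sham 1 and 2.09 without sham 2), Capg higher (58.0 ± 20.5 to 115 ± 10.5 CPM; 0.98, SE 0.32), Gsn lower and 1 gene not past the threshold. The call of Capg was lost under DESeq2 (adjusted p = 0.20) and without sham 1 (0.23). Of 16 genes of the Ly6 family, 10 were in the data and 4 were tested. Ly6e rose from 66.2 ± 29.5 to 374 ± 21.2 CPM (2.49, SE 0.25, adjusted p = 1.0e-06), Ly6c1 gave 2 and 0 against 27 and 30 UMIs (ratio 14.6, exact binomial interval 3.86 to 124), and Plaur, the urokinase receptor, fell from 135 ± 11.9 to 43.7 ± 4.46 CPM (-1.63, SE 0.31), a call that was lost in UMIs per tube (adjusted p = 0.13). Genes of the Ly6 cluster resemble each other in sequence, and how reads that match several genes were counted is not given in the sources used here, so that counts of Ly6a and Ly6c1 carry that uncertainty. Of 6 PDGF ligands and receptors, 5 were in the data and the 2 tested were both ligands and both higher: Pdgfa rose from 62.5 ± 26.9 to 217 ± 16.6 CPM (1.80, SE 0.28), and Pdgfb gave 1 and 2 against 31 and 42 UMIs (ratio 12.5, 4.11 to 61.9).

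Collagen RNA of fibroblast type gave a similar mixture. Of 9 collagens and Sparc, 9 genes were tested, with 2 higher, 4 lower and 3 not past the threshold (median -0.28). The tally was 6 higher and 0 lower in UMIs per tube and 7 higher and 0 lower with offsets against abundance. Over all genes, 93.1% of the calls were higher in UMIs per tube and 50.8% with these offsets. With library sizes alone, 2 were lower. Col1a1 was level, at 858 ± 54.3 CPM in sham and 855 ± 129 CPM in overloaded libraries (-0.01, edgeR adjusted p = 0.97). Col1a2 rose from 286 ± 51.6 to 1025 ± 117 CPM and Col6a3 from 2 to 62 UMIs (ratio 15.9, 4.22 to 134), while Col3a1 (-0.53) and Sparc (-0.74) were lower in CPM and turned to 0.42 and 0.21 in UMIs per tube and to 0.65 and 0.38 with offsets against abundance, and the call of Col3a1 was also lost with library sizes alone (adjusted p = 0.15) and without sham 1 (0.14).

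The 12 markers of MuSCs themselves were all tested, with 6 lower, 2 higher and 4 not past the threshold (median -0.40). The tally depended on the setting, with 6 higher and 2 lower both in UMIs per tube and with offsets against abundance, 5 higher with library sizes alone, and 0 higher without sham 2. The list summed to 7535 and 6632 CPM in sham and 5640 and 5095 CPM in overloaded libraries, with Sdc4 as the most abundant gene. Pax7 fell from 499 ± 20.4 to 279 ± 2.39 CPM (-0.84, SE 0.16) but was at 0.12 in UMIs per tube and lost its call with offsets against abundance (adjusted p = 0.28), whereas Calcr, the calcitonin receptor of quiescent MuSCs (-2.60, SE 0.32), and Chrdl2 (-2.53, SE 0.19) fell in all 16 other settings as well. The higher genes were Itga7, an integrin subunit that binds laminin (366 ± 24.2 to 585 ± 25.6 CPM; 0.67, SE 0.17; lost without sham 2, adjusted p = 0.11), and Cdh15, M-cadherin (262 CPM on average in sham and 364 CPM in overloaded libraries; 0.47, SE 0.18), whose call was lost with thinned counts (adjusted p = 0.12), under DESeq2 (0.29) and without sham 1 (0.35), sham 2 (0.18) or overloaded 1 (0.17). Over the 4 libraries, the tested genes of at least 20 UMIs on average whose pattern was most like that of the summed 8 genes were Pax7, Ptprf, Ankrd28, Cdc42ep5 and Saraf, with Euclidean distances of 0.00897, 0.0240, 0.0377, 0.0472 and 0.0566 between centred log2 CPM values. With 4 libraries in 2 groups, this likeness describes little more than the size of the difference between the groups.

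The lists of markers of other cell types did not all change alike. Of 12 leukocyte markers, 9 had no UMI in sham. Lyz2 and Cd74 were tested and called higher, but they passed the filter only through the overloaded libraries and so could not have been called lower. The number called higher was 10 with no filter and 0 with a mean of at least 20 counts. The list summed to 8.71 and 27.2 CPM in sham and to 205 and 397 CPM in overloaded libraries. Lyz2, its most abundant gene, gave 0 and 0 against 17 and 38 UMIs and Cd74 gave 0 and 0 against 17 and 27 UMIs. Ptprc, the gene of the common leukocyte antigen CD45, gave 0, 1, 1 and 4 UMIs; it is named after its values were seen.

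Myofiber markers were higher in overloaded libraries in 6 of 6 genes tested, of 8 in all (median 1.01), but in only 3 without sham 2, and summed to 1693, 901, 3091 and 2910 CPM, with Acta1 as the most abundant gene and Myh1 and Myh2 at 0 in sham. Endothelial markers summed to 135, 95.1, 177 and 176 CPM, and of 10 genes 3 were tested, with Cd93 higher (ratio 5.64, 1.77 to 28.7), Tek lower (-1.41) and Flt1 not past the threshold; Tek was the most abundant, Egfl7 and Cldn5 were at 0 in sham, and the calls of Cd93 and Tek were lost under DESeq2 (adjusted p = 0.13 and 0.22), that of Cd93 also with offsets (0.66) and without overloaded 2 (0.12), and that of Tek also in UMIs per tube (0.45) and without sham 2 (0.20) or overloaded 1 (0.20). Of 9 adipocyte markers 5 were in the data and 2 were tested; Fabp4, which endothelial cells also make, gave 1 and 1 against 58 and 54 UMIs (ratio 28.7, 7.77 to 240), and the list without it summed to 60.9, 68.0, 54.6 and 56.7 CPM, with Plin1 and Retn at 0 in sham. The groups did not overlap in the sums of leukocyte, myofiber, endothelial and adipocyte lists, all higher in overloaded libraries.

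Mural cell markers summed to 1532, 1459, 1604 and 1719 CPM, and without Acta2, the most abundant, to 1032, 965, 679 and 721 CPM. The largest part of these last sums was Notch3, at 762, 738, 372 and 344 CPM. It encodes a Notch receptor, and the study reports RNA of Notch-related genes in MuSCs of overloaded muscle. Which cells gave the RNA of this list was not tested. Of 8 genes 5 were tested, with 2 higher (Acta2, 497 ± 4.81 to 962 ± 51.4 CPM, and Rgs5, 37.4 ± 27.2 to 136 ± 53.3 CPM), 2 lower (Notch3, 750 ± 16.5 to 358 ± 19.5 CPM, and Tagln, 171 ± 10.9 to 113 ± 19.9 CPM) and 1 not past the threshold; the 2 lower calls became 0 in UMIs per tube, that of Tagln was also lost with library sizes alone (adjusted p = 0.27), under DESeq2 (0.32), with no filter (0.16) and without sham 1 (0.16) or overloaded 2 (0.34), the log2 fold change of Rgs5, 1.88, was 2.89 without sham 1 and 1.26 without sham 2, and Myh11 was at 0 in sham. Tenocyte markers summed to 871, 888, 465 and 340 CPM, with Chodl as the most abundant gene, which fell from 852 ± 1.07 to 255 ± 59.2 CPM (-1.76, SE 0.18). Without Chodl the sums were 17.4, 36.2, 169 and 128 CPM, and Scx, the transcription factor of tendon cells, gave 1 and 2 against 40 and 61 UMIs (ratio 17.3, 5.74 to 85.1). In these sums Scx alone was at 104 CPM in overloaded 1 and 124 CPM in overloaded 2. Of the 8 tenocyte genes in the data, 4 had no UMI in sham, and all 4 were at 0 in overloaded 2 too. They were seen in overloaded 1 only, where Tnmd gave 1, Fmod 7, Thbs4 14 and Comp 1 UMIs.

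**Figure D5:**
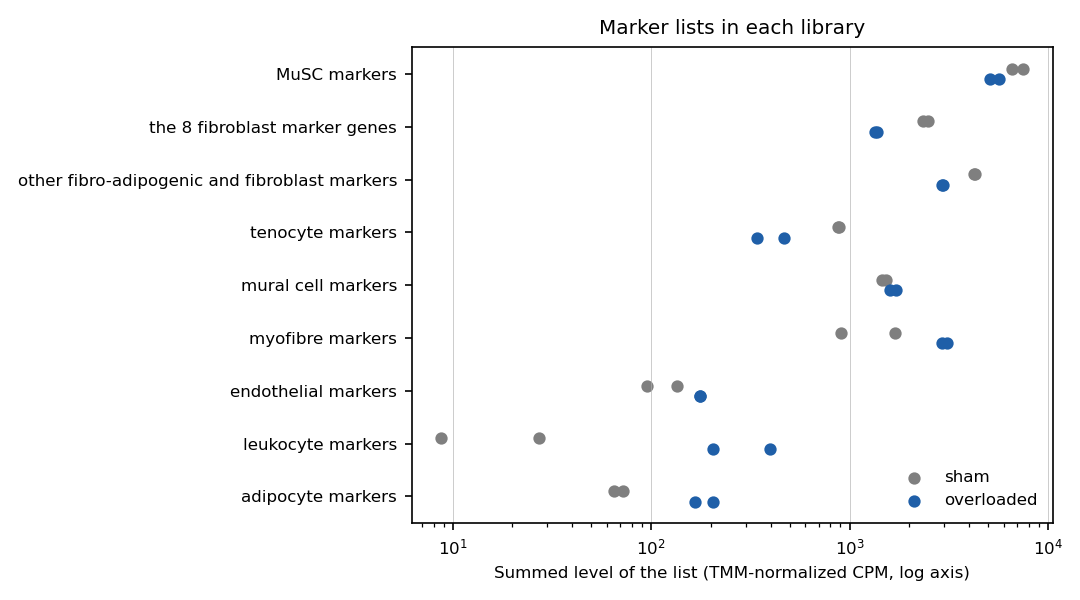
Summed level of each marker list in CPM (log axis), with a point for each library, grey for sham and blue for overloaded. The 8 fibroblast marker genes and the wider fibroblast list were lower in both overloaded libraries, and the leukocyte list was higher in both, from 8.71 and 27.2 to 205 and 397 CPM.

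Ly6a, Ly6c1, Fabp4 and Mgp are also made by endothelial cells, and the part of other cell types in the rise of Ly6a, or of any change given above, was not tested. Pdgfra gave 0 UMIs in the sham libraries, in which Gsn, Dpt and Dcn gave between 85 and 304 UMIs in each library. In sham 1 and sham 2, Fbn1 gave 43 and 25 UMIs, Lum 8 and 6, Mfap5 0 and 1, and Ly6a 1 and 0. A count of 0 in tubes of 100 cells does not show that Pdgfra RNA was absent, and the source of the marker RNA was not tested.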

How the data were processed

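The data were UMI counts from 4 CEL-Seq2 libraries of YFP-sorted MuSCs, 2 per group. Per the study's methods and the submitters' processing notes, barcodes and UMIs were extracted with UMI-tools (version 1.0.0), reads were aligned to GRCm38 with HISAT2 (version 2.1.0) and assigned with featureCounts (version 1.6.4), and the authors deposited the resulting UMI count per gene and library without normalization; annotation release and strand setting are not given in the sources used here. Genes that overlap the 8 genes gave 0 to 2 UMIs. All 19353 identifiers matched GENCODE M21, 19331 of them with the same name.

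Counts were scaled by TMM, filtered with filterByExpr (minimum count 10, minimum total 15), and tested with edgeR's quasi-likelihood test (version 4.0.16, R version 4.3.3), with Benjamini-Hochberg adjustment over 7228 genes, a threshold of 0.1 and a prior count of 0.125. At an unadjusted p under 0.05, 3732 genes passed, and the common biological coefficient of variation was 9.50%. A single gene compared by permutation of 2 against 2 libraries could not reach a two-sided p below 0.333, and no such test was used. The test was also run on counts simulated with a common dispersion, in which 181 of 7107 tested genes were changed. It found 67.7% of the 2-fold and 96.6% of the 4-fold changes, and 8.64% of its calls were of unchanged genes. In the data far more genes were called and fold changes followed abundance, so that these rates need not hold there. Libraries of a group differed by more than sampling noise (chi-square per degree of freedom 1.31 for sham and 1.50 for overloaded), so none was taken as a repeat deposit of another; this does not show that they came from separate animals.

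Genes with 1 to 3 sham counts are given as a ratio with an exact binomial interval, and those with none by their counts. The 8 genes, the lists and the tests were chosen with earlier results of these data known. Genes named were all 8, the 5 most like in pattern, and list genes that passed the test or were among the 3 of their list with the most UMIs. Not every list gene that met this rule is named. Pi16, Procr, Fap, Smoc2, Pdgfrb and other genes named for low counts or for 0 UMIs in sham were added after their values were seen. One further marker list is not reported here. Alternatives were DESeq2 size factors, library sizes alone, UMIs per tube, offsets against abundance, thinned counts, DESeq2 (version 1.42.0), limma-voom (limma version 3.58.1), no filter, a mean of at least 20 counts, an adjusted p of 0.05, a replicate block, a prior count of 2, and each library left out.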

Additional observations from a re-analysis of the deposited data

How the results depend on the processing

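Dpt kept its direction and its side of the threshold in every setting run, and was among the 28 of 56 genes followed across the settings that did so. The number of the 8 genes called higher, 1 as reported, was 3 in UMIs per tube, 2 with no filter and 0 with a mean of at least 20 counts, which removed Ly6a; the number called lower, 3 as reported, was 1 in UMIs per tube and 1 with offsets against abundance, and 2 to 3 without 1 library. Over all genes, 4481 were higher and 331 lower in UMIs per tube, and 762 higher and 1049 lower by DESeq2, which put 42.1% of its calls on the higher side against 49.6% as reported; with no filter that share was 57.6% and the median of all genes 0.30. With 1 library left out, 1360 to 1668 genes were higher and 1489 to 1720 lower. The log2 ratio of the summed level, -0.83 as reported, was -0.56 with library sizes alone, -0.74 with thinned counts, -0.59 without Gsn, -0.91 to -0.78 without 1 library, and 0.13 in UMIs per tube.

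Of these 56 genes, those whose values turned in direction in UMIs per tube were Dcn (0.58), Fbn1 (0.78), Serping1 (0.12), Lpl (0.42), Bgn (0.83), Col3a1 (0.42), Sparc (0.21), Tagln (0.35), Pax7 (0.12), Ptprf (0.13), Ankrd28 (0.0925), Cdc42ep5 (0.14) and Saraf (0.17). With offsets against abundance, Dcn (0.20), Bgn (0.41), Col3a1 (0.65) and Sparc (0.38) turned, and with library sizes alone Fbn1 (0.11) and Bgn (0.16). Without 1 library, Fbn1 ranged from -0.52 to 0.23 (0.21 without sham 1 and 0.23 without overloaded 2) and Bgn from -0.37 to 0.14 (0.10 without sham 1 and 0.14 without overloaded 2). UMIs per tube omit the scaling to a common library size by construction; for the other settings the cause was not tested.

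Libraries that share a replicate number did not deviate together (correlation of deviations -0.03), so that the numbers gave no sign of pairing. In other experiments of the study the sham muscle was the contralateral one. Whether the sham and overloaded tubes shared animals is not stated. With a replicate block, 1806 genes were higher and 1864 lower, and of the 8 genes 1 was higher and 3 were lower. Offsets, DESeq2, limma-voom and the block give no summed level. Depth limits Pdgfra, for which no difference was detectable, and Lum and Mfap5, which had too few counts for the test.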
